A study of Mus musculus with 6 samples.

Results

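The genes described here are 10 members of the transforming growth factor β (TGF-β) pathway out of 20756 genes in the deposited table: the ligands Tgfb1 and Tgfb2, the receptors Tgfbr1 and Tgfbr2, the SMAD proteins Smad3, Smad4 and Smad7, the nuclear co-repressors Skil and Tgif1, and the feedback inhibitor Pmepa1. They were chosen by symbol, with earlier results of these data known. All 10 were found in the table and passed the filter of at least 1 CPM (reads per 1000000 reads assigned to genes) in at least 3 libraries. The data are 3′ tag sequencing libraries of mouse material that the labels call MTO, strain C57BL/6, with no treatment, grown in a medium with added EGF. The 2 genotypes are sgC (n = 3), taken here as the control guide, and sgPrkci/Prkcz (n = 3), named for Prkci and Prkcz, which encode the atypical kinases PKC iota and PKC zeta. The deposited table is marked in vitro, while the protocol also tells of cells placed under the skin of mice and the series text speaks of tumors, with more biological replicates than the 3 per genotype analysed here. The labels name no allele shared by both groups, so whether the parent line carried altered TGF-β receptor or SMAD genes is not given in the sources used here. Tags at the 3′ end need not show it. Whether a group is 1 clone or the replicates grew apart is likewise not stated, and the p-values therefore describe the spread of these samples, which may be technical.

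TGF-β ligands are secreted in a latent complex and, once released, bind a type II receptor that recruits and activates a type I receptor. The active receptor phosphorylates the receptor SMADs, which join SMAD4 and act on target genes in the nucleus, where co-repressors of the SKI and TGIF families hold them back and where genes for inhibitors such as SMAD7 and PMEPA1 are switched on as negative feedback. In gut epithelium the pathway restrains growth and is often disabled in colorectal cancer, while in fibroblasts it drives matrix production.

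Depth followed genotype, with 2821908 to 3048170 reads in the sgC libraries and 1543826 to 1808292 in the sgPrkci/Prkcz libraries. The targeted genes stood at 54.9 ± 8.60 and 54.4 ± 0.686 CPM (Prkci) and at 5.64 ± 0.706 and 2.09 ± 1.71 CPM (Prkcz), each in sgC and then sgPrkci/Prkcz as mean ± SD with n = 3. No label places the guides within these genes, and 3′ tags away from a cut cannot test whether protein was lost. Epithelial markers were all 8 in the table, with a summed level of 3575 to 4106 CPM in sgC and 3778 to 4223 CPM in sgPrkci/Prkcz. Of them Epcam (0.52) and Cldn4 (0.46) rose and Krt18 (-0.21) fell by limma, in log2 fold change. Fibroblast markers (6 of 8 in the table) summed to 0.328 to 2.35 CPM in sgC and 0.553 to 0.648 CPM in sgPrkci/Prkcz, with Lum at 0 in every library. Endothelial markers (4 of 6) reached at most 0.670 and 0.648 CPM in the groups, with Pecam1 and Cdh5 at 0, and smooth muscle markers (3 of 5) at most 0.670 and 0 CPM, with Acta2 at 0. Leukocyte markers (2 of 7) summed to 5.25 to 7.38 CPM in sgC and 7.74 to 14.3 CPM in sgPrkci/Prkcz, most of it Cd68, which was at 0.53 on the log2 scale (limma adjusted p = 0.167).

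Among the members the ligand gene Tgfb1 and the receptor SMAD gene Smad3 rose, and the feedback inhibitors Smad7 and Pmepa1 fell. The ligand gene Tgfb2 was at about 1 CPM in sgC and at 0 in sgPrkci/Prkcz, and its direction was built into its passing the filter. The receptors Tgfbr1 and Tgfbr2, the shared SMAD gene Smad4 and the co-repressors Skil and Tgif1 did not pass the test. Each adjusted p is a Benjamini-Hochberg value over all tested genes. By limma at an adjusted p under 0.05, 5 of 10 members were called against 35.2% of all 12207 tested genes, 2 rose against 11.4% and 3, Tgfb2 among them, fell against 23.8%. The groups did not overlap in the same number, 5 of 10, against 45% of tested genes. These shares are near the background over so few genes, so the counts are a description of the members and say nothing particular about them. The median log2 fold change (always sgPrkci/Prkcz minus sgC, taken on log2(CPM + 1), where low genes appear to change less) was -0.05 over the members and -0.17 over all tested genes. Shifting all genes so that their median change was 0 left 3 members called, of which 2 rose and 1 fell, against 17.4% and 14.4% of tested genes (31.8% in either direction). With edgeR 4 of the 9 members in its test were called (Tgfb1, Smad3, Smad7 and Pmepa1), against 38.1% of genes in its test. With medians of neighbouring genes removed 4 of 10 were called, against 29.4%, but Tgfb2 was then among them and Smad7 was not.

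**Figure D1:**
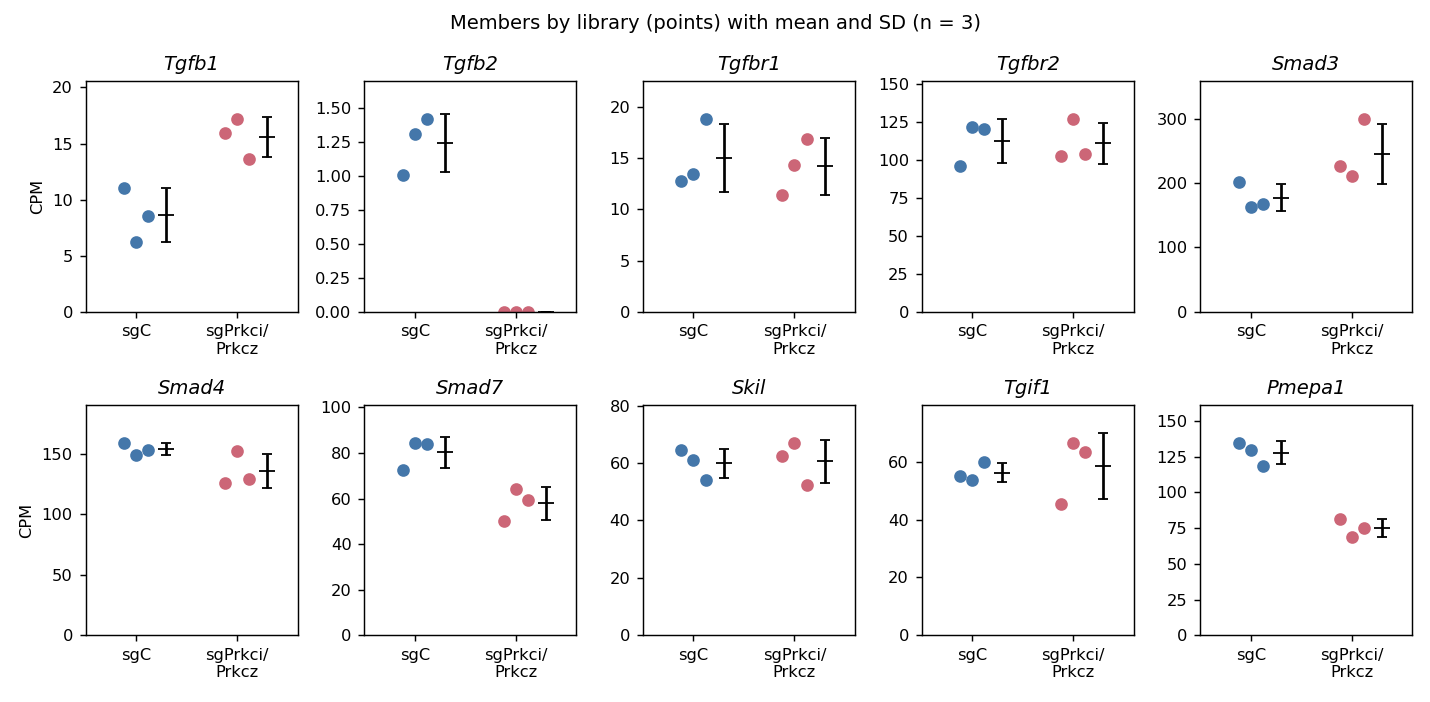
CPM of each of the 10 members in the 3 sgC (blue) and 3 sgPrkci/Prkcz (red) libraries, on linear axes from 0 that differ between panels, with the mean and SD of each group in black. The groups are apart for Tgfb1, Tgfb2, Smad3, Smad7 and Pmepa1 and overlap for the other 5 genes.

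Tgfb1 (ENSMUSG00000002603, GRCm38 chromosome 7, 25687002 to 25705077) encodes the most widely made ligand of the family. It stood at 11.1, 6.23 and 8.50 CPM in sgC replicates 1 to 3 and at 15.9, 17.1 and 13.6 CPM in sgPrkci/Prkcz replicates 1 to 3. Each sgPrkci/Prkcz library lay above every sgC library. The level was low: the sgC libraries held 33, 19 and 24 reads of it, and the sgPrkci/Prkcz libraries 28, 31 and 21. Pooled over each group, the ratio was 1.82 with a 95% exact interval of 1.31 to 2.53 that covers counting error only. Tgfb1 rose by 0.81 on the log2 scale (SE 0.242, limma adjusted p = 0.00968). The call was lost when sgC replicate 2, the lowest library, was left out, where the estimate was 0.62 (limma adjusted p = 0.0825). The other 19 alternatives kept it. The edgeR quasi-likelihood test on whole reads put the rise at 1.00 (edgeR adjusted p = 0.00208).

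Tgfb2 (ENSMUSG00000039239, chromosome 1, 186622792 to 186705989) encodes another ligand, which needs the co-receptor betaglycan for efficient receptor binding. It was listed at 1.01, 1.31 and 1.42 CPM in the sgC libraries, from 3, 4 and 4 reads, and at 0 in all 3 sgPrkci/Prkcz libraries. The pooled reads were 11 against 0. The sgC level was 2.12 times that of 3 reads over the sgPrkci/Prkcz group (0.587 CPM), taken as the limit that a count of 0 allows. This value takes the 11 sgC reads as exact, so it is no strict lower bound of the fold. Tgfb2 passed the filter through the sgC libraries alone, so a difference in this direction was built into its being tested, and its p is no support for one. The limma call (adjusted p = 0.0343) was kept in 6 of the 12 alternatives that gave it an adjusted p, which ranged from 0.00216 to 0.125. It was lost without sgPrkci/Prkcz replicate 1 (limma adjusted p = 0.0639) and without replicate 2 (adjusted p = 0.0576), and without any sgC library the gene did not pass the filter. All that was measured of Tgfb2 is thus 11 sgC reads. The remaining ligand gene, Tgfb3, had no call, with a log2 fold change of 0.12 (limma adjusted p = 0.873).

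The sequences ahead of the start sites of the ligand genes are shown to set the member that rose beside the ligand gene that was close to 0. They are the 250 bases before the RefSeq start on GRCm38, 5′ to 3′ on the gene's strand, for Tgfb1 at chr7:25686752-25687001 (plus strand) and for Tgfb2 at chr1:186705990-186706239 (minus strand). Capitals mark exact matches to 3 motifs: the SMAD box CAGAC and the GC box GGGCGG on either strand, and the TATA box TATAAA on the gene's strand.
Tgfb1: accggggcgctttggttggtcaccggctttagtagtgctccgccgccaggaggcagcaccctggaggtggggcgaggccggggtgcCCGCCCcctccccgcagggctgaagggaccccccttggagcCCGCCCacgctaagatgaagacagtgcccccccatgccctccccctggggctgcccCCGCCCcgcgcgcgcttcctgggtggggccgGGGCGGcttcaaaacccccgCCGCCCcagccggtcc
Tgfb2: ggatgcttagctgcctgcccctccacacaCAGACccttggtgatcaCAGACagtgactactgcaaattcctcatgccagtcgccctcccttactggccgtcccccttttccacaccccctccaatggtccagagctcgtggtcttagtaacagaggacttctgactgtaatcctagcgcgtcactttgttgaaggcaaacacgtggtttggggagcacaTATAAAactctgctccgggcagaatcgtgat
The Tgfb1 window was 75.2% G and C and held 5 GC boxes, with no match to the TATA or SMAD box. The Tgfb2 window was 53.6% G and C and held a TATA box 31 bases before the start and 2 SMAD boxes, 221 and 204 bases before it, with no GC box. Over the 32851 windows of this length in the table, the median was 52.4% G and C, and 42.2% held a SMAD box, 32.7% a GC box and 7.59% a TATA box. No match between different motifs overlapped in these windows. The 8-base SMAD palindrome GTCTAGAC and the AP-1 site TGAGTCA, both searched on either strand, were in neither window and in 0.167% and 4.46% of all windows. A match is a description of letters, and the start sites used in these cells were not measured. An antisense gene, Gm29491, overlaps the start of Tgfb2, away from its 3′ end.

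The receptor genes gave no detectable difference. Tgfbr1 (ENSMUSG00000007613, chromosome 4, 47353222 to 47414931) encodes the type I receptor kinase, and stood at 12.7, 13.5 and 18.8 CPM in sgC and at 11.4, 14.4 and 16.8 CPM in sgPrkci/Prkcz. Its log2 fold change was -0.07 with a 95% interval of -0.53 to 0.39 (limma adjusted p = 0.841). Tgfbr2 (ENSMUSG00000032440, chromosome 9, 116084293 to 116175360) encodes the ligand-binding type II receptor, and stood at 95.9, 122 and 120 CPM in sgC and at 102, 127 and 104 CPM in sgPrkci/Prkcz. The libraries of the groups were interleaved for both genes. The log2 fold change of Tgfbr2 was -0.02 with a 95% interval of -0.25 to 0.21 (limma adjusted p = 0.912). For Tgfbr1 (132 reads over sgC, 72 over sgPrkci/Prkcz) the interval still allows a fall of 0.53 or a rise of 0.39 on the log2 scale, while for Tgfbr2 (996 and 569 reads) it is narrower.

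Smad3 (ENSMUSG00000032402), which encodes a SMAD that the receptor phosphorylates and that binds DNA, rose. It stood at 201, 163 and 167 CPM in sgC and at 226, 211 and 299 CPM in sgPrkci/Prkcz. Each sgPrkci/Prkcz library lay above every sgC library, and replicate 3 was the highest. The log2 fold change was 0.46 (SE 0.111, limma adjusted p = 0.00218), and 0.31 without sgPrkci/Prkcz replicate 3 (adjusted p = 0.0237). The call was kept in 19 of 20 alternatives and lost with limma without trend (adjusted p = 0.103). Smad3 lies on chromosome 9 (63646767 to 63757994 on GRCm38), and the 66 other tested genes within 5 Mb of it had a median log2 fold change of -0.21. With such medians of neighbouring genes removed, Smad3 was at 0.67 (limma adjusted p = 5.08e-05). Its partner Smad2, which was not among the members, had no call (log2 fold change 0.05, limma adjusted p = 0.816).
The 250 bases before its RefSeq start, at chr9:63757995-63758244 on the minus strand of GRCm38, are shown beside those of Tgfb1 as the other member that rose, with the same motifs in capitals.
Smad3: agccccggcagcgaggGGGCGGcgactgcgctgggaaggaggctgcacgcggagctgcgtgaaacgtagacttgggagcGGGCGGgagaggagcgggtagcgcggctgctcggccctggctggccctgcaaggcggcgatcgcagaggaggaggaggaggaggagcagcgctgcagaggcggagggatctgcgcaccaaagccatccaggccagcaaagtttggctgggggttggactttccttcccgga
The Smad3 window was 69.2% G and C and held 2 GC boxes, with no match to the SMAD box, the TATA box, the SMAD palindrome or the AP-1 site. These features were not particular to the genes that rose: the first Tgfbr1 window was 74.8% G and C with 2 GC boxes, and 1 of the 5 Tgif1 windows was 69.6% with 5 GC boxes, each with no SMAD or TATA box, and neither gene was called. Of the 10 members 6 had such a window.

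Smad4 (ENSMUSG00000024515, chromosome 18, 73639009 to 73703780), which encodes the SMAD that the receptor SMADs of this pathway and of the bone morphogenetic protein (BMP) pathway share, did not pass the test. It stood at 159, 149 and 153 CPM in sgC and at 126, 152 and 129 CPM in sgPrkci/Prkcz. Of the sgPrkci/Prkcz libraries 2 lay below the sgC range, and replicate 2 lay within it. Its log2 fold change of -0.18 (95% interval -0.39 to 0.02, limma adjusted p = 0.156) was close to the median of all tested genes, -0.17. With the median change set to 0 it was -0.02.

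Smad7 (ENSMUSG00000025880, chromosome 18, 75367529 to 75395935), which encodes the inhibitory SMAD that blocks the receptor, fell. It stood at 72.4, 84.3 and 84.0 CPM in sgC and at 50.0, 64.1 and 59.6 CPM in sgPrkci/Prkcz. Every sgPrkci/Prkcz library lay below every sgC library. The log2 fold change was -0.47 (SE 0.125, limma adjusted p = 0.00429). A shift of all genes to a median change of 0 left -0.30, which did not pass (limma adjusted p = 0.065). With medians of neighbouring genes removed it was -0.26 (adjusted p = 0.116), with chromosome medians removed -0.29 (adjusted p = 0.0821), and with DESeq2 -0.32 (adjusted p = 0.165). The edgeR quasi-likelihood test on whole reads kept the call at -0.33 (edgeR adjusted p = 0.0369). Limma without trend lost it (limma adjusted p = 0.0596), and 15 of 20 alternatives kept it.

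Pmepa1 (ENSMUSG00000038400, chromosome 2, 173224458 to 173276533), which encodes a membrane protein that binds receptor SMADs and keeps them from the receptor, fell. It stood at 134, 130 and 119 CPM in sgC and at 81.2, 68.6 and 75.1 CPM in sgPrkci/Prkcz. The highest sgPrkci/Prkcz library was well below the lowest sgC library. The log2 fold change was -0.76 (SE 0.108, limma adjusted p = 2.67e-06), and pooled reads gave a ratio of 0.586 (95% counting interval 0.520 to 0.658). The call was kept in 20 of 20 alternatives, over which the log2 fold change ranged from -0.82 to -0.56. The 31 other tested genes within 5 Mb on chromosome 2 had a median of -0.05.

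The co-repressor genes gave no detectable difference. Skil (ENSMUSG00000027660, chromosome 3, 31095058 to 31122577) encodes SnoN, which binds SMAD complexes on DNA and is itself induced by the pathway, and stood at 64.4, 61.0 and 54.2 CPM in sgC and at 62.5, 66.9 and 52.5 CPM in sgPrkci/Prkcz. Its log2 fold change was 0.01 (95% interval -0.25 to 0.28, limma adjusted p = 0.948). Tgif1 (ENSMUSG00000047407, chromosome 17, 70844205 to 70853546) encodes a homeodomain protein that brings histone deacetylases to SMADs, and stood at 55.0, 53.8 and 59.9 CPM in sgC and at 45.4, 66.4 and 63.5 CPM in sgPrkci/Prkcz. The sgPrkci/Prkcz libraries lay on both sides of the sgC range. Its log2 fold change was 0.04 (95% interval -0.25 to 0.32, limma adjusted p = 0.869). Of the negative regulators among the members, Smad7 and Pmepa1 thus fell in the main fit while the intervals of Skil and Tgif1 lay on both sides of 0. Smad7 kept its call in 15 of 20 alternatives and Pmepa1 in 20 of 20.

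**Figure D2:**
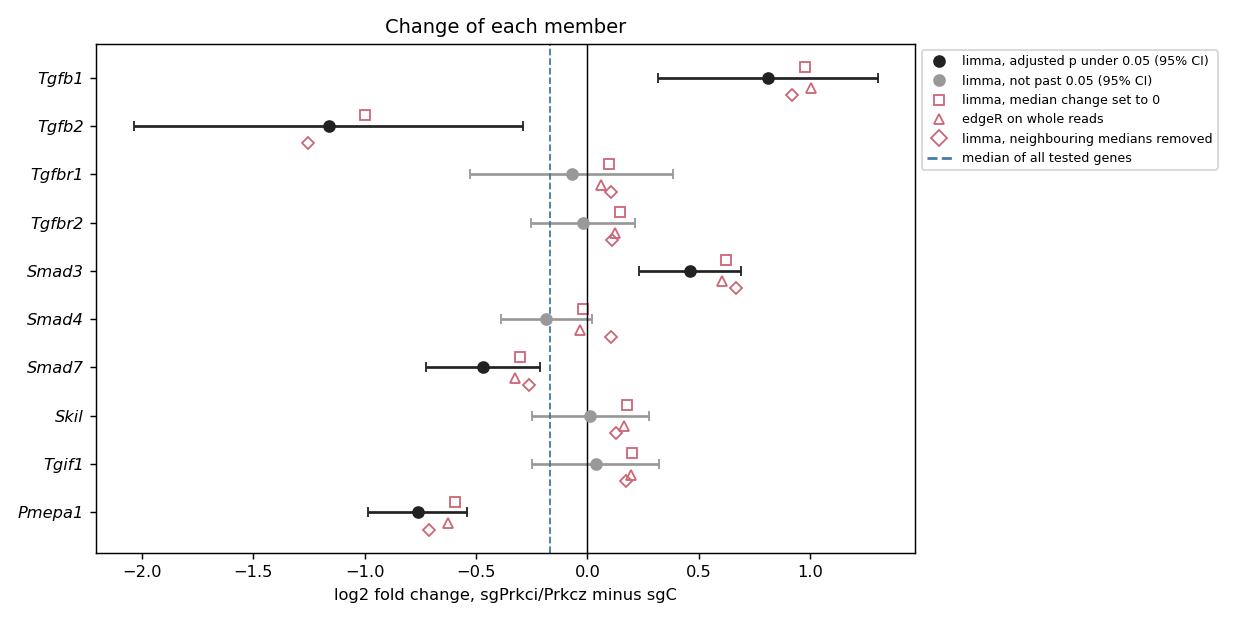
Log2 fold change (sgPrkci/Prkcz minus sgC) of each member by limma with its 95% interval (black where adjusted p was under 0.05, grey otherwise), with the value under 3 other treatments of the data (open red symbols) and the median of all tested genes (dashed line, -0.17). Tgfb1 and Smad3 lie above 0 and Smad7 and Pmepa1 below it under each treatment shown, and Tgfb2 has no edgeR value because it was too low for that test.

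A ratio of 2 members within a library depends little on how libraries are scaled, so 3 ratios were set side by side. On the log2(CPM + 1) scale the ratio of Smad3 to Smad7 was 1.46, 0.95 and 0.98 in the sgC libraries and 2.15, 1.70 and 2.31 in the sgPrkci/Prkcz libraries. All sgPrkci/Prkcz libraries were above all sgC libraries, by 0.93 on average. Since each of them was already above every sgC library for Smad3 and below for Smad7, this separation was fixed beforehand. The two-sided exact permutation p was thus bound to be 0.10, the smallest that 3 against 3 allows, and is no further support. It was 0.15 after Benjamini-Hochberg adjustment over 3 ratios, Tgfb1 to Tgfb2 among them. The ratio of Tgfb1 to Tgfb2 was 2.59, 1.65 and 1.98 in the sgC libraries and 4.08, 4.18 and 3.87 in the sgPrkci/Prkcz libraries, a difference of 1.97. Tgfb2 was at 0 in each sgPrkci/Prkcz library and was tested through sgC alone. The p of this ratio (exact permutation p = 0.10), which is part of the adjustment over 3 ratios, is therefore no support. The size of the difference is set by the pseudocount, with 4.62 for 0.1 and 0.93 for 5. The ratio of Tgfbr1 to Tgfbr2 was -2.82, -3.09 and -2.61 in the sgC libraries and -3.06, -3.05 and -2.55 in the sgPrkci/Prkcz libraries, and its difference of -0.05 was smaller than the SD within either group, 0.237 and 0.292 (exact permutation p = 1.00).

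**Figure D3:**
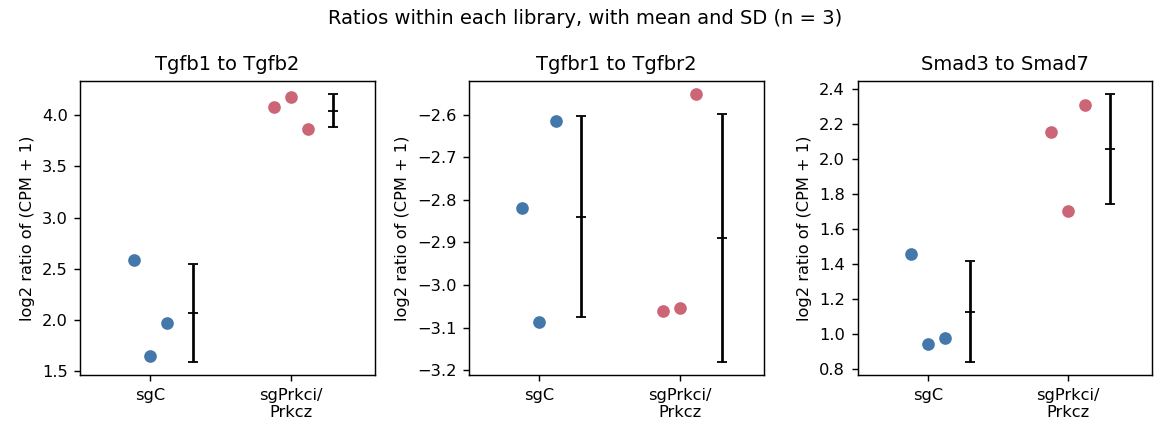
Log2 ratio of (CPM + 1) of 2 members within each library, for the 3 sgC (blue) and 3 sgPrkci/Prkcz (red) libraries, with the mean and SD in black and axes that differ between panels. The groups are apart for Smad3 to Smad7, as they already were for each of these genes alone, and interleaved for Tgfbr1 to Tgfbr2. The gap for Tgfb1 to Tgfb2 is set by the pseudocount, as Tgfb2 was at 0 in every sgPrkci/Prkcz library.

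The spread within groups was close to counting error for the lower genes and above it for some of the higher ones. The coefficient of variation of Tgfb1 was 28.1% in sgC, where counting alone gives 19.9%, and 11.6% in sgPrkci/Prkcz, where counting gives 19.4%. For Smad3 it was 11.7% and 19.0% against counting values of 4.38% and 4.92%. Pmepa1 varied by 6.34% and 8.45%, near its counting values of 5.15% and 8.85%.

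The rest of the pathway was described through 7 lists with 170 other genes, of which 151 were in the table and 123 were tested. Of these, 22 rose and 25 fell, 38.2% called against 35.2% of all tested genes, and 34 rose and 13 fell once the median change was set to 0. Their median log2 fold change was -0.04. Setting the median change to 0 also moved all tested genes, from 11.4% risen and 23.8% fallen to 17.4% and 14.4%. These shares were 19.9% and 18.2% with edgeR, and 16.5% and 12.9% with medians of neighbouring genes removed. With chromosome medians removed, 1970 genes rose and 1597 fell. Counts in the lists below are to be read beside these values. The lists draw on general knowledge of many cell types but were chosen with earlier results of these data known, so their shares of calls are descriptions and no independent evidence. Some genes sit in more than 1 list.

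Of the genes for ligand latency and activation, 12 were tested, 1 rose and 1 fell. At a median change of 0, or with chromosome or neighbouring medians removed, 5 rose and 0 fell. With edgeR 3 of the 8 in its test rose and 1 fell. All tested genes also shifted towards rises under these settings. Ltbp3, which encodes a protein that tethers latent TGF-β to the matrix, rose from 39.1 ± 5.37 to 58.4 ± 6.61 CPM, 0.57 on the log2 scale (limma adjusted p = 0.00221), in 20 of 20 alternatives. Itgb1, the β1 integrin gene, was at -0.35, but it was at 0.04 with chromosome medians removed and at 0.08 with medians of neighbouring genes removed. Itgb6, whose integrin releases active TGF-β in epithelia, was at 0.54 and did not pass (limma adjusted p = 0.0702).

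Of 11 tested receptors and co-receptors 2 rose and 1 fell, or 4 and 1 with the median change set to 0. Strap, which encodes a receptor-associated inhibitor that acts with SMAD7, fell from 341 ± 35.4 to 242 ± 18.4 CPM, -0.49 on the log2 scale (limma adjusted p = 1.04e-04), in 20 of 20 alternatives. Bambi, the gene of a decoy receptor without a kinase, rose from 8.35 ± 1.57 to 13.9 ± 0.908 CPM (0.68), a call lost without any of 4 libraries and kept in 14 of 20 alternatives. Those libraries were sgC replicate 1 (limma adjusted p = 0.119), sgC replicate 3 (0.0542), sgPrkci/Prkcz replicate 1 (0.0749) and sgPrkci/Prkcz replicate 2 (0.0505). Bmpr2, a type II BMP receptor gene, rose from 110 ± 10.2 to 133 ± 4.47 CPM (0.28). That call was lost without sgC replicate 2 (limma adjusted p = 0.201), sgPrkci/Prkcz replicate 1 (0.0918) or sgPrkci/Prkcz replicate 3 (0.0749). It was also lost when libraries were thinned to equal depth (0.0761), with chromosome medians removed (0.182) and with limma without trend (0.145), and was kept in 14 of 20 alternatives.

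Of 21 tested SMADs and nuclear cofactors 3 rose and 6 fell, a balance that turned with scaling. It was 5 risen and 2 fallen once the median change was 0 or chromosome medians were removed, and 5 and 3 with edgeR. The balance over all tested genes turned likewise under each of these settings. Of the SMAD partners of the RUNX family, Runx1 rose from 104 ± 2.96 to 175 ± 10.5 CPM (0.74, limma adjusted p = 6.46e-07) and Runx3, a tumour suppressor of gastric epithelium, fell from 260 ± 10.7 to 186 ± 17.3 CPM (-0.48, adjusted p = 1.16e-04). Runx2 was at -0.31 and did not pass (limma adjusted p = 0.0624). Smad1, a receptor SMAD of the BMP pathway, fell from 15.2 ± 3.04 to 4.67 ± 3.43 CPM (-1.68, limma adjusted p = 3.56e-04). These 3 calls were kept in 20 of 20 alternatives. The co-repressor gene Ncor1 was at -0.38, and at 0.06 with chromosome medians removed.

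Of 24 tested ubiquitin and phosphatase regulators 2 rose and 4 fell, against 3 and 2 at a median change of 0, or 4 and 1 with chromosome medians removed. Nedd4l, the gene of a ubiquitin ligase for activated SMADs and receptors, fell from 63.1 ± 8.64 to 44.0 ± 5.88 CPM (-0.51, limma adjusted p = 0.00476), and Usp15, a deubiquitinase gene, fell from 80.6 ± 1.95 to 56.7 ± 8.29 CPM (-0.51, adjusted p = 0.00186). Nedd4l was kept in 16 and Usp15 in 17 of 20 alternatives. Nedd4l lost its call at -0.35 once the median change was 0 (limma adjusted p = 0.0564), and Usp15 at -0.26 with chromosome medians removed (0.119). Ctdsp2, which encodes a phosphatase that acts on SMADs, rose from 24.7 ± 6.26 to 39.1 ± 1.57 CPM (0.67, limma adjusted p = 0.00304). Skp1a, a ubiquitin ligase subunit gene on chromosome 11, was at -0.41, and at 0.03 with chromosome medians removed. The ubiquitin ligase genes Smurf1 (0.02) and Smurf2 (-0.13), partners of SMAD7, had no call.

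Of 20 tested trafficking and adaptor genes 3 rose and 2 fell. At a median change of 0, as with edgeR, 6 rose and 0 fell, and 5 and 0 with scaling by TMM. Of all 12207 tested genes, 1874 rose and 2130 fell with scaling by TMM. Cav1, the caveolin gene of a route of receptor uptake, rose from 164 ± 12.4 to 228 ± 8.99 CPM (0.48, limma adjusted p = 1.51e-04). Rhoa, a small GTPase gene, rose from 333 ± 20.6 to 441 ± 52.8 CPM (0.40, adjusted p = 7.01e-04), and Snx6, a sorting nexin gene, from 183 ± 11.4 to 221 ± 5.57 CPM (0.27). The Snx6 call was lost in 5 alternatives, among them without sgC replicate 1 (limma adjusted p = 0.0604), sgC replicate 2 (0.0558), sgPrkci/Prkcz replicate 1 (0.0525) and sgPrkci/Prkcz replicate 2 (0.0561). Rock2 (-0.26) and the adaptor gene Shc1 (-0.44) fell in the limma fit and lost the call with edgeR (edgeR adjusted p = 0.257 and 0.122). Rock2 was at 0.11 with medians of neighbouring genes removed. Rock2 also lost it without sgPrkci/Prkcz replicate 2 (limma adjusted p = 0.0611), and Shc1 without sgC replicate 2 (0.0767) or sgPrkci/Prkcz replicate 3, where it was at -0.29 (0.114).

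Of 4 tested genes of the activin and inhibin arm 2 fell, and 1 with the median change set to 0 or with edgeR. Gdf15, the gene of a distant family member that acts as a stress cytokine, fell from 113 ± 26.7 to 36.2 ± 6.46 CPM (-1.60, limma adjusted p = 6.79e-09). Fst, which encodes the activin trap follistatin, was at -0.49 and lost the call in 10 of 20 alternatives, with -0.18 when medians of neighbouring genes were removed and, without sgC replicate 2, -0.40 (limma adjusted p = 0.0986).

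Of 32 tested genes that TGF-β induces or regulates in various cell types, 20 were called (62.5%, beside 35.2% of all tested genes), and in both directions: 11 rose and 9 fell. The choice of this list with earlier results known bears on that share, and Itga2 and Timp3 passed the filter through 1 group alone. The list had a median log2 fold change of -0.01. By adjusted p the leading 4 were Bmp4, from 132 ± 16.7 to 9.51 ± 4.07 CPM (-3.72), the heme oxygenase gene Hmox1, from 312 ± 37.8 to 92.8 ± 19.2 CPM (-1.75), Id3, from 81.1 ± 10.7 to 25.5 ± 5.42 CPM (-1.64), and Bmp2, up to 60.5 ± 2.50 CPM (1.56). Bmp4, Bmp2 and Id3 are ligands and a target of the BMP pathway. Hmox1 is best known as a target of the oxidative stress response. The integrin gene Itga2, chosen after its values were seen, had 2 reads over the sgC libraries and 47 over the sgPrkci/Prkcz libraries, a pooled ratio of 40.7 (95% counting interval 10.7 to 346). The metalloproteinase inhibitor gene Timp3, chosen likewise, had 21 reads over sgC and 0 over sgPrkci/Prkcz. Its sgC level was 4.04 times that of 3 reads over sgPrkci/Prkcz, with the sgC reads taken as exact. Itga2 passed the filter through sgPrkci/Prkcz alone and Timp3 through sgC alone, so these directions were built into their being tested.

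Ccn2, the connective tissue growth factor gene and a classical TGF-β target, was chosen after its values were seen. It stood at 3.35, 1.64 and 5.67 CPM in sgC and at 19.9, 9.95 and 13.6 CPM in sgPrkci/Prkcz, a rise of 1.82 on the log2 scale (limma adjusted p = 5.75e-05). All sgPrkci/Prkcz libraries were above all sgC libraries, and the call was kept in 20 of 20 alternatives. Ccn2 is also a target of the YAP pathway. An antisense gene, Gm15270, overlaps it, and without the strand setting their reads cannot be told apart. It rose in the same libraries in which the feedback genes Smad7 and Pmepa1 were lower and Skil gave no detectable difference.

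**Figure D4:**
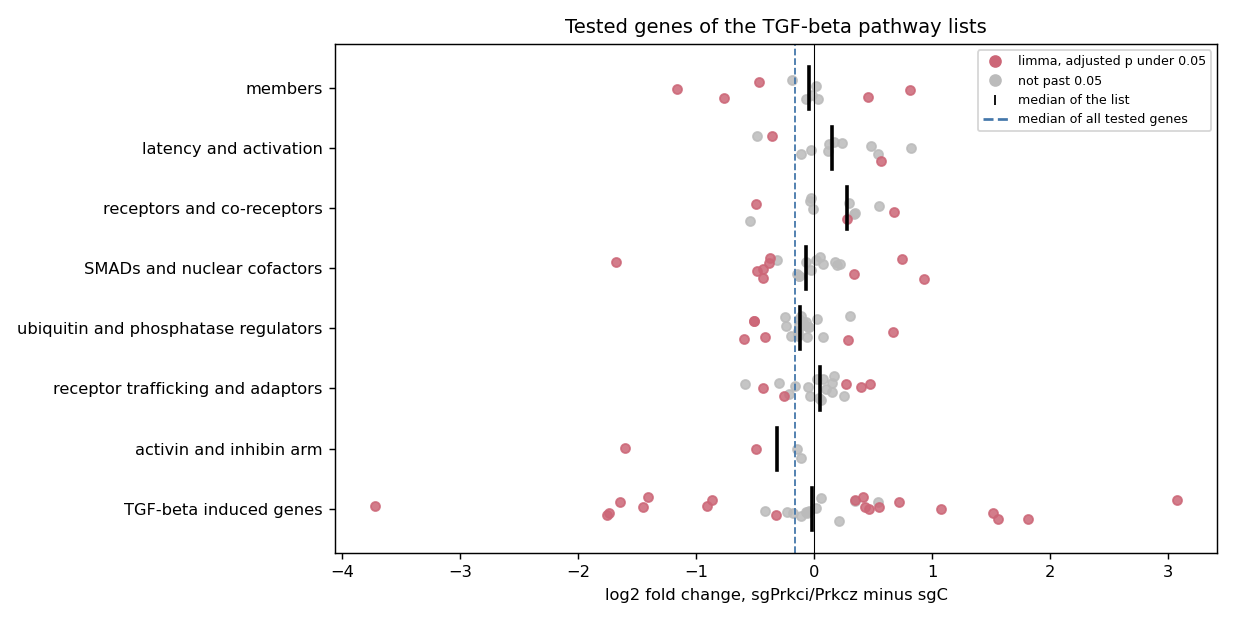
Log2 fold change (sgPrkci/Prkcz minus sgC) of each tested gene in the members and in 7 lists of other pathway genes, red where limma's adjusted p was under 0.05, with the median of each list (black bar) and of all tested genes (dashed line, -0.17). Points are spread at random in height. The list labelled TGF-beta induced genes, which TGF-β induces or regulates in various cell types, reaches from -3.72 (Bmp4) to 3.08 (Itga2).

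In bulk samples, fewer cells of a type and less RNA per cell cannot be told apart. Fibroblast, endothelial and smooth muscle markers were at or near 0 in both groups. The summed leukocyte markers were higher in every sgPrkci/Prkcz library than in any sgC library (7.74 to 14.3 against 5.25 to 7.38 CPM). That sum rests on 2 of 7 markers and mostly on Cd68, which was not called. The groups also did not overlap for 45% of all tested genes. The part of these markers in the results was not tested. Depth, which followed genotype, was measured directly. With every library thinned to the same number of reads in a single random draw, 4 of the 9 members then tested were called (Tgfb1, Smad3, Smad7 and Pmepa1). Over all genes, 3650 of 12111 were called under this thinning. Tgfb2 did not pass the filter. The part of depth in the results was not tested further.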

How the data were processed

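The authors deposited 1 table of CPM values for 20756 genes, scaled so that each library totals 1000000. Build GRCm38 is named in the labels, per the submitters' processing notes, and a 3′ tag kit made the libraries, per the labels' protocols. Aligner, counter, strand setting and handling of molecular identifiers: not given in the sources used here. Columns were matched to samples by title. GENCODE (GRCm38) supplied symbols and coordinates and gave 20675 genes a symbol. Upstream sequences came from RefSeq (GRCm38).

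Dividing the deposited CPM by the smallest value above 0 gave whole numbers in 100% of cases (relative tolerance 1e-06), so whole reads were recovered. A read was worth 0.328 to 0.648 CPM. The main test was limma 3.58.1 with trend and robust estimation on log2(CPM + 1). It covered 12207 genes that reached 1 CPM in 3 or more libraries, with genotype as the factor. It was tested on simulated data with equal numbers of rises and falls and most genes unchanged. That setting does not cover the wide change and the shifted median of these data. The edgeR 4.0.16 quasi-likelihood test on the recovered reads called 3754 of 9842 genes. The alternatives, 20 in all, also included DESeq2 1.42.0 and limma-voom in R 4.3.3. Medians of neighbouring genes (5 Mb on either side) were chosen as an alternative after seeing the data.

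The members and lists were chosen with earlier results of these data known. Genes named are the members, the guide targets and, per list, the 4 called genes with the smallest adjusted p (all where 5 or fewer were called). Others, such as Smad2, Tgfb3, Runx2, Itgb6, Smurf1, Smurf2, Ccn2, Itga2 and Timp3, were chosen after their values were seen.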

Additional observations from a re-analysis of the deposited data

How the results depend on the processing

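Over the 20 alternatives, the number of calls over all genes stayed within 1.5 times of 4300 except with DESeq2 (2546). The genes tested differed, with 12207 in the main fit, 9842 with edgeR, 9425 at a mean of at least 5 CPM and 18850 with no filter. The counts are therefore not shares of the same set. Without each library in turn the calls were 3079 to 3978. The share of rises moved with scaling, from 1391 risen and 2909 fallen to 2125 and 1756 with the median change set to 0. It was 1869 and 1936 with quantile normalization, and 1962 and 1792 with edgeR. Members called were 3 with the median change set to 0, with limma without trend and with DESeq2, and 3 to 5 without each library. The other pathway genes called were 30 with limma without trend and 35 to 43 without each library. Between members, Pmepa1 kept its call throughout, Tgfb1 and Smad3 in 19 of 20 alternatives, Smad7 in 15 of 20 and Tgfb2, which sgC alone brought past the filter, in 6 of 12. The ratio of Tgfbr1 to Tgfbr2 changed sign without single libraries (-0.22 to 0.0628). With chromosome medians and then medians of neighbouring genes removed, Itgb1 (0.0431 and 0.0811), Ncor1 (0.0627 and 0.15) and Skp1a (0.0307 and 0.0302) changed sign, as did Rock2 with the second (0.11), and the cause was not tested. Tgfb1 and Tgfb2 are limited by depth, with 76 and 11 sgC reads. No paired analysis was possible because the labels give the groups no shared replicate numbers.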
